A study of Mus musculus with 2 samples.

Results

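The cells described here carried transcripts of interleukin 2 (Il2) but few or none of interleukin 17A (Il17a), interleukin 17F (Il17f) or interferon gamma (Ifng). They were selected on their measured cytokine transcripts, among cells cultured to make interleukin 17: at least 10 Il2 counts per 10000 counts of the cell, and under 10 per 10000 for each of Il17a, Il17f and Ifng, called the effector cytokines below. The rule found 174 of the 1727 cells that passed filtering, 78 of 1018 in the library labelled wild type and 96 of 709 in the library labelled Nfatc1-deficient. They are called Il2-only cells. A count is a unique molecular identifier (UMI), which stands for 1 captured transcript molecule, and the levels of the 4 cytokines are a consequence of the rule and not a finding.

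CD8 T cells were taken with magnetic beads from mesenteric lymph nodes of C57/B6N mice, cultured with a commercial Th17 cytokine kit to make Tc17 cells (CD8 T cells that produce interleukin 17), and restimulated for 3 h with PMA at 100 ng/ml and ionomycin at 10 μg/ml before 10x Genomics 3′ single-cell RNA sequencing. Both groups received the same culture and stimulation. The control mice were wild type, and the others carried loxP-flanked Nfatc1 alleles with Cd4-Cre (Nfatc1f/f×Cd4-Cre), a driver that is active from the CD4 CD8 double-positive stage and so covers CD4 and CD8 T cells alike. The sources used here give no number, age or sex of the mice. There was 1 library per genotype, so no test was run and no p-value is given. Every interval below is a 95% interval of counting error alone, and those of summed levels and folds take no account of cell-to-cell spread.

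Interleukin 2 is a growth and survival factor that activated T cells secrete and sense themselves through the receptor chains Il2ra, Il2rb and Il2rg. Its gene is silent in resting cells. It is switched on when calcium and protein kinase C signals, which ionomycin and PMA mimic, bring NFAT, AP-1 and NF-κB factors to a short promoter just upstream of the gene. Cells that make interleukin 2 alone are usually regarded as less differentiated than cells that also make effector cytokines.

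The libraries held 24452538 and 17898193 UMIs, shared 0 cell barcodes, and stood apart from each other: 9 clusters were made without the 4 cytokine genes, and clusters 3, 4 and 5 held 88 and 41, 54 and 8, and 51 and 46 cells of the wild-type-labelled and deficient-labelled library, whereas each of the other 6 had at most 26 cells from 1 of the libraries. Nfatc1 itself, the targeted gene (ENSMUSG00000033016, chromosome 18, 80606205 to 80713071, mm10), went against its label. In Il2-only cells it stood at 56.0 counts per 1000000 (CPM, 76 UMIs) in the wild-type-labelled and 167 CPM (353 UMIs) in the deficient-labelled library, 2.98-fold higher in the latter (2.32 to 3.87). In the other kept cells the values were 38.9 and 132 CPM. A 3′ tag does not check a deletion of internal exons, and which exons were deleted is not stated in the labels. The libraries are therefore called wild-type-labelled and deficient-labelled, and each direction between them rests on those labels.

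Il2-only cells made up 7.66% of kept cells in the wild-type-labelled library (exact binomial interval 6.10 to 9.47) and 13.5% in the deficient-labelled library (11.1 to 16.3). The intervals did not overlap. The shares were taken again after each cell was thinned to 5000 UMIs, since cells differ in depth (library medians of 20905.5 and 21436 UMIs). They were then 8.37% and 13.8%. The remaining cells differed too: an effector cytokine was carried by 82.5% of kept cells in the former library and 75.6% in the latter. Among cells low for all 3 effector cytokines, Il2-only cells were 78 of 178 (43.8%, 36.4 to 51.4) and 96 of 173 (55.5%, 47.8 to 63.0), with intervals that overlapped. Among all Il2-high cells they were 13.3% (10.7 to 16.3) and 18.0% (14.8 to 21.5), again overlapping. Overlap of intervals is not a test and does not show that 2 shares are alike. Whether these shares differ between genotypes cannot be told apart from a difference between libraries.

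**Figure D1:**
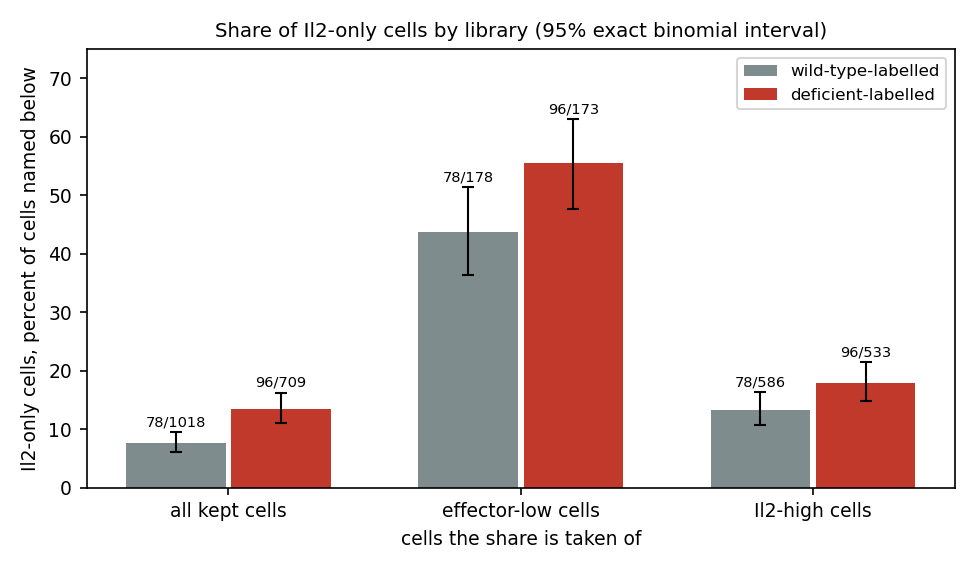
Share of Il2-only cells (percent, y axis) in the wild-type-labelled and deficient-labelled library, taken of all kept cells, of cells low for Il17a, Il17f and Ifng, and of Il2-high cells. Bars give the share, lines the exact binomial 95% interval and labels the numbers of cells. The intervals of the first pair, 7.66% against 13.5%, do not overlap and those of the other pairs do, which is not a test.

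The Il2 level of the chosen cells spanned a wide range above the threshold. Per 10000 UMIs, the lowest, median and highest Il2 values were 11.01, 59.5 and 415 in the 78 wild-type-labelled cells. In the 96 deficient-labelled cells they were 10.46, 68.5 and 437. The medians of Il2-high cells that also carried an effector cytokine were 91.4 and 97.2, and those of cells low for all 4 cytokines 1.43 and 1.64. At the Il2 threshold, 2 and 3 members had values from 10 to under 12, whereas 4 and 3 effector-low cells had values from 8 to under 10. At the effector threshold, 4 and 11 members had a highest effector value from 8 to under 10, and 7 and 4 Il2-high cells lay from 10 to under 12. Low is not absent: at 5000 UMIs per cell, 38.5% and 48.4% of Il2-only cells held at least 1 Il17a UMI, as did 49.5% and 50% of cells low for all 4 cytokines. Before thinning, 76.9% of wild-type-labelled Il2-only cells held an Il17a UMI and 83.3% an Il17f UMI. In cells low for all 4 cytokines of that library the shares were 84.0% and 82.0%. The name Il2-only therefore stands for the rule and not for cells free of interleukin 17 transcripts. No cell type that should lack Il17a was present to give a background share.

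**Figure D2:**
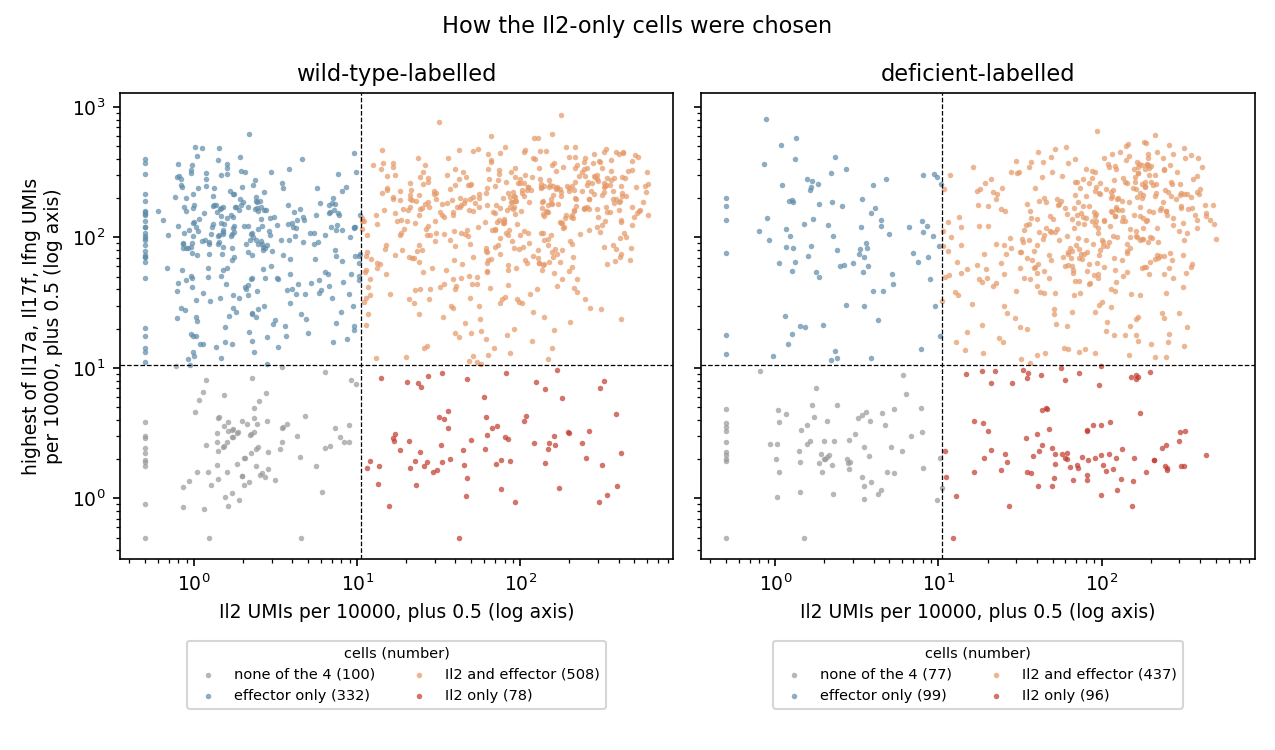
Each point is a kept cell, placed by its Il2 value (x axis) and the highest of its Il17a, Il17f and Ifng values (y axis), both in UMIs per 10000 plus 0.5 on log axes, 1 panel per library. Dashed lines mark the thresholds of 10; the Il2-only cells, 78 and 96, fill the lower right field from its left edge to Il2 values of 415 and 437.

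The cells were T cells by their markers. All 174 held UMIs of at least 3 of 15 CD8 T-cell markers. Cd8b1, a chain of the CD8 co-receptor, was found in 92.3% and 93.8% of them. The partner chain Cd8a was found in 42.3% (33 of 78) and 53.1% (51 of 96), against 67.9% and 69.3% of the other kept cells. Cd4 was found in 0 of 78 and 2 of 96, and no Il2-only cell held 3 or more markers of B cells, myeloid cells, dendritic cells or natural killer cells. Summed B-cell markers reached 31.7 and 47.8 CPM with Cd79a and Ms4a1 at 0, against 4653 and 4499 CPM of CD8 T-cell markers. At least 3 of 6 innate lymphoid markers were found in 66.7% and 60.4% of the cells, but that list (among them Rora, Il7r and Id2) holds genes that activated T cells express too. None of the Il2-only cells was called a doublet, of 6 and 5 calls among kept cells.

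Il2-only cells did not form a cluster of their own. In the wild-type-labelled library 42 of 78 fell in cluster 1, led by Mmp10, Id3, Enc1 and Tmcc3, 15 in cluster 0, led by Cd40lg, Il21 and Inhba, and 15 in cluster 4. In the deficient-labelled library 74 of 96 (77.1%) fell in cluster 6, led by Areg, Samd4 and Map3k8, which held 45.2% of the other kept cells, and 11 fell in cluster 7, led by Gzmb and Ccl9, which held 30% of the others. Few were in the dividing cluster 3, 1 and 2 cells. The share called G1 at 5000 UMIs per cell was 69.2% (54 of 78) and 67.4% (64 of 95), beside 66.7% and 69.5% of the other kept cells. G2/M calls numbered 1 of 78 and 0 of 95, where a count of 0 allows a share of up to 3.16% (3 counts) or 3.81% (exact upper bound), beside 6.16% and 3.48% of the others. Median depth was 16648 and 19839.5 UMIs per Il2-only cell, and 21253.5 and 21689 per other kept cell, so depth moved with the grouping.

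The 174 cells were first set against the 177 that were low for all 4 cytokines (100 and 77), which differ from them in the rule by Il2 alone. UMIs were summed per library and group, and a gene counted as apart when it differed at least 2-fold in the same direction in both libraries, on log2 of CPM plus 1, with at least 20 CPM and UMIs in 10% of cells in 1 of the groups. Of 5521 genes tested, 21 were higher in Il2-only cells (0.38%) and 199 were lower (3.6%), 220 in all (3.98%). Ranked by the smaller of both log2 ratios, Ccl3, Il1r2 and Ccl4 came first among the higher genes and Fos, Fam78a and Vps37b among the lower genes. At 5000 UMIs per cell 128 of the 220 were still apart and 47 were not tested. The 173 that were tested all had the same sign. Thinned counts are drawn from the same UMIs, so here and below a shared sign is no separate support. Under edgeR's TMM scaling the split was 32 higher and 143 lower, and with median ratio size factors 34 and 139, so the excess of lower genes is in part set by scaling. The cells low for all 4 cytokines had fewer UMIs, with medians of 13567 and 15118, and cluster 5, led by Klf2, Fos and S1pr1, held 22 of 100 and 28 of 77 of them but 1 and 6 Il2-only cells. With cluster 5 left out of both groups, a setting chosen after seeing the data, 13 genes were higher (0.243%) and 65 lower (1.21%). Of the genes apart with all cells, 13 of 21 higher and 49 of 199 lower genes remained. A gene could drop out by its ratio or by falling under the floor of 20 CPM.

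Chemokines were among the higher genes. Ccl3, which draws monocytes and T cells to inflamed tissue, reached 841 against 111 CPM (1141 and 191 UMIs) among wild-type-labelled cells, 7.59-fold higher (6.51 to 8.90). In the deficient-labelled library it stood at 5190.0 against 925 CPM, 5.61-fold higher (5.30 to 5.94). The gap also showed per cell: at 5000 UMIs, 46.2% of Il2-only cells and 26.8% of cells low for all 4 cytokines held a Ccl3 UMI in the former library, and 76.8% and 43.4% in the latter. Ccl4, its neighbour and close relative, was 4.08-fold and 3.12-fold higher, at 7893 and 33341 CPM in Il2-only cells. Xcl1, the ligand for XCR1 on cross-presenting dendritic cells, was 4.97-fold higher in the wild-type-labelled library but 1.47-fold in the other, so it did not count as apart. For gene lists the requirement was a mean of at least 5 CPM in place of the floor above, under which 0.413% of all genes were higher and 5.29% lower. By that rule 4 of 7 measured chemokines were higher (Ccl3, Ccl4, Ccl5 and Ccl20) and none lower, although Ccl5 and Ccl20 rested on 8 and 9 UMIs in wild-type-labelled Il2-only cells. Without cluster 5, 3 of 6 were higher, beside 0.353% of all genes higher and 2.27% lower by the same rule.

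Ligands of the tumour necrosis factor family were also among the higher genes. Tnfsf14 (LIGHT), a co-stimulatory ligand, stood at 119 against 42.3 CPM (2.80-fold, 2.11 to 3.75) in the wild-type-labelled and 227 against 77.6 CPM (2.92-fold, 2.37 to 3.62) in the deficient-labelled library. Tnfsf14 UMIs were found in 46.2% against 14.4% of thinned cells in the former and 69.5% against 22.4% in the latter. Tnfsf9 (4-1BB ligand) was 3.24-fold and 3.40-fold higher, and Tnfsf11 (RANKL), known for driving osteoclast formation, 2.56-fold and 3.41-fold. The fourth ligand of the list that was higher, Cd40lg, which helps B cells and dendritic cells, came from 3 of 78 and 7 of 96 Il2-only cells, below the 10% of cells required of a single gene. The receptor Tnfrsf25 and the ligand Tnfsf10 (TRAIL) were lower. That made 4 higher and 2 lower of 15 measured, beside 0.413% and 5.29% of all genes by the list rule. The counts were the same without cluster 5, beside 0.353% and 2.27% of all genes. Tnf itself stood at 343 against 207 CPM (1.66-fold) and 518 against 108 CPM (4.79-fold), past 2-fold in the deficient-labelled library alone.

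Further surface and signalling genes were higher in Il2-only cells. Slamf7, a homophilic receptor of activated lymphocytes, stood at 164 against 65.5 CPM (2.5-fold, 1.98 to 3.16) and 428 against 167 CPM (2.56-fold, 2.22 to 2.97). Il1r2, the decoy receptor for interleukin 1, was 9.22-fold (5.02 to 18.5) and 5.08-fold (3.54 to 7.50) higher, carried by 18 cells in each library. Samd4, an RNA-binding regulator of translation, was 6.41-fold and 2.89-fold higher. Cdk5r1, the activator of the kinase Cdk5, was 3.02-fold and 2.87-fold higher, and Plek, a protein kinase C substrate, 3.92-fold and 2.68-fold. Spry1, a feedback inhibitor of Ras signalling, was 2.67-fold and 2.29-fold higher. Inhba, which encodes the activin A subunit, was near the limit at 2.01-fold and 2.19-fold, from 27 and 22 cells. Tanc2, a scaffold protein, was 2.91-fold and 2.66-fold higher. Without cluster 5, Spry1 (log2 ratios of 1.18 and 0.94) and Inhba (0.90 and 0.64) fell short of 2-fold.

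Among the lower genes were regulators that mark naive and memory T cells, of which 13 of 28 measured were lower and 0 higher. By the list rule 5.29% of all genes were lower and 0.413% higher. The median log2 ratios of the list were -1.04 and -0.81, beside -0.11 and -0.10 over all genes. Tcf7, encoding the stem-like factor TCF-1, stood at 26.5 against 141 CPM (5.33-fold lower, 3.75 to 7.79) and 26.5 against 155 CPM (5.83-fold lower, 4.33 to 7.97). Its UMIs were found in 5.13% against 33.0% of thinned cells in the wild-type-labelled library and 7.37% against 36.8% in the deficient-labelled library. Lef1, the partner of Tcf7, was 7.32-fold and 4.48-fold lower, and Satb1, a chromatin organiser, 4.34-fold and 3.68-fold, at 113 and 108 CPM in Il2-only cells. Klf2, which keeps T cells circulating through lymph nodes, was 8.0-fold and 3.47-fold lower. Ccr7, the lymph node homing receptor, was 2.35-fold and 2.65-fold lower. These ratios depended on cluster 5. Without it, 4 of 24 measured members of the list were lower, beside 2.27% of all genes, among them Dapl1, Satb1 and Tcf7, and the medians were -0.21 and 0.03, beside -0.08 and -0.07 over all genes. Satb1 was then at 114 against 439 CPM and 81.7 against 212 CPM, and Tcf7 at 21.5 against 44.8 CPM and 9.31 against 27.3 CPM. Division genes were lower without cluster 5 as well. Of 42 G2/M genes 8 were lower and 0 higher, with medians of -1.11 and -0.77. Of 38 S-phase genes 5 were lower and 0 higher, with medians of -1.27 and -0.43.

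Bach2, a repressor of effector programmes that sits in the same list, went the other way, at 1.63-fold and 1.49-fold higher in Il2-only cells, short of the 2-fold limit. Fos, an AP-1 subunit, stood at 6.63 against 179 CPM (26.9-fold lower) and 22.7 against 221 CPM (9.74-fold lower). Without cluster 5, whose cells carry much of the Fos transcript, it stood at 6.68 against 13.1 CPM and 24.3 against 44.9 CPM, under 2-fold. Cd8a was 2.38-fold and 2.56-fold lower, at 66.3 against 158 CPM and 102 against 261 CPM, and without cluster 5 it stood at 66.8 against 120.0 CPM and 94.7 against 236 CPM, under 2-fold in the wild-type-labelled library. Il16, the precursor of a CD4-binding cytokine, was 8.26-fold and 6.74-fold lower. Pik3ip1, an inhibitor of PI3 kinase, was 5.90-fold and 5.86-fold lower. Ighm, the immunoglobulin mu heavy chain and a B-cell marker, was 5.46-fold and 5.2-fold lower, at 12.5 and 14.7 CPM in Il2-only cells, while Cd79a and Ms4a1 were at 0. The sum of the 9 B-cell markers was 31.7 and 47.8 CPM in Il2-only cells and 95.6 and 220.4 CPM in cells low for all 4 cytokines. Ighm is part of that sum, so the sum is not a separate measure. Of cells low for all 4 cytokines, 36 of 100 and 35 of 77 held an Ighm UMI. At least 3 of these markers were held by 4 of 100 and 2 of 77, and the part of such cells in the result was not tested. Vps37b, Elovl6, Arhgap45, Cerk and Arl4c were between 4.86-fold and 9.83-fold lower. Fam78a, on 2 and 5 UMIs in Il2-only cells, was 14.6-fold (3.75 to 125) and 14.1-fold (5.63 to 45.3) lower. Gzmb was 11.4-fold and 4.57-fold lower. Il7r, the interleukin 7 receptor chain, was 1.93-fold and 1.72-fold lower and did not pass, and without cluster 5 it was higher in deficient-labelled Il2-only cells (75.5 against 51.9 CPM). Of the 12 leading lower genes Tcf7, Ighm and Gzmb remained apart without cluster 5, against 11 of the 12 leading higher genes. Il16 (log2 ratios of -2.20 and -1.50), Cerk (-2.09 and -1.79) and Elovl6 (-1.63 and -1.32) stayed over 2-fold lower. They dropped out because they lacked the required 20 CPM in both libraries. Fos, Vps37b, Arhgap45, Arl4c and Pik3ip1 did not reach 2-fold in both libraries.

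Growth genes differed by small steps. In the list of ribosome biogenesis and Myc targets, 22 of 24 members were higher in both libraries, beside 26.8% of all genes, and none by 2-fold. Their median log2 ratios were 0.34 and 0.46, and 0.17 in each library without cluster 5. Of 27 regulators of Il2 transcription and messenger stability, 5 were lower by 2-fold (Nfatc2, Fos, Cd28, Zfp36 and Zfp36l2) and 0 higher. Beside that, 5.29% of all genes were lower and 0.413% higher by the list rule. Cd28, the co-receptor whose signal raises interleukin 2 output, was 4.05-fold and 2.07-fold lower. Without cluster 5, Nfatc2 and Zfp36l2 alone of the 27 were lower by 2-fold, beside 2.27% of all genes, and Cd28 had log2 ratios of -1.23 and -0.52. Zfp36 encodes tristetraprolin, which binds AU-rich elements in cytokine messengers and hastens their decay. Rel, the NF-κB subunit c-Rel, stood at 1.11-fold and 1.94-fold. The interleukin 2 receptor chain Il2ra was at 834 against 769 CPM and 588 against 570 CPM, ratios of 1.08 (1.0 to 1.17) and 1.03 (0.944 to 1.13).

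**Figure D3:**
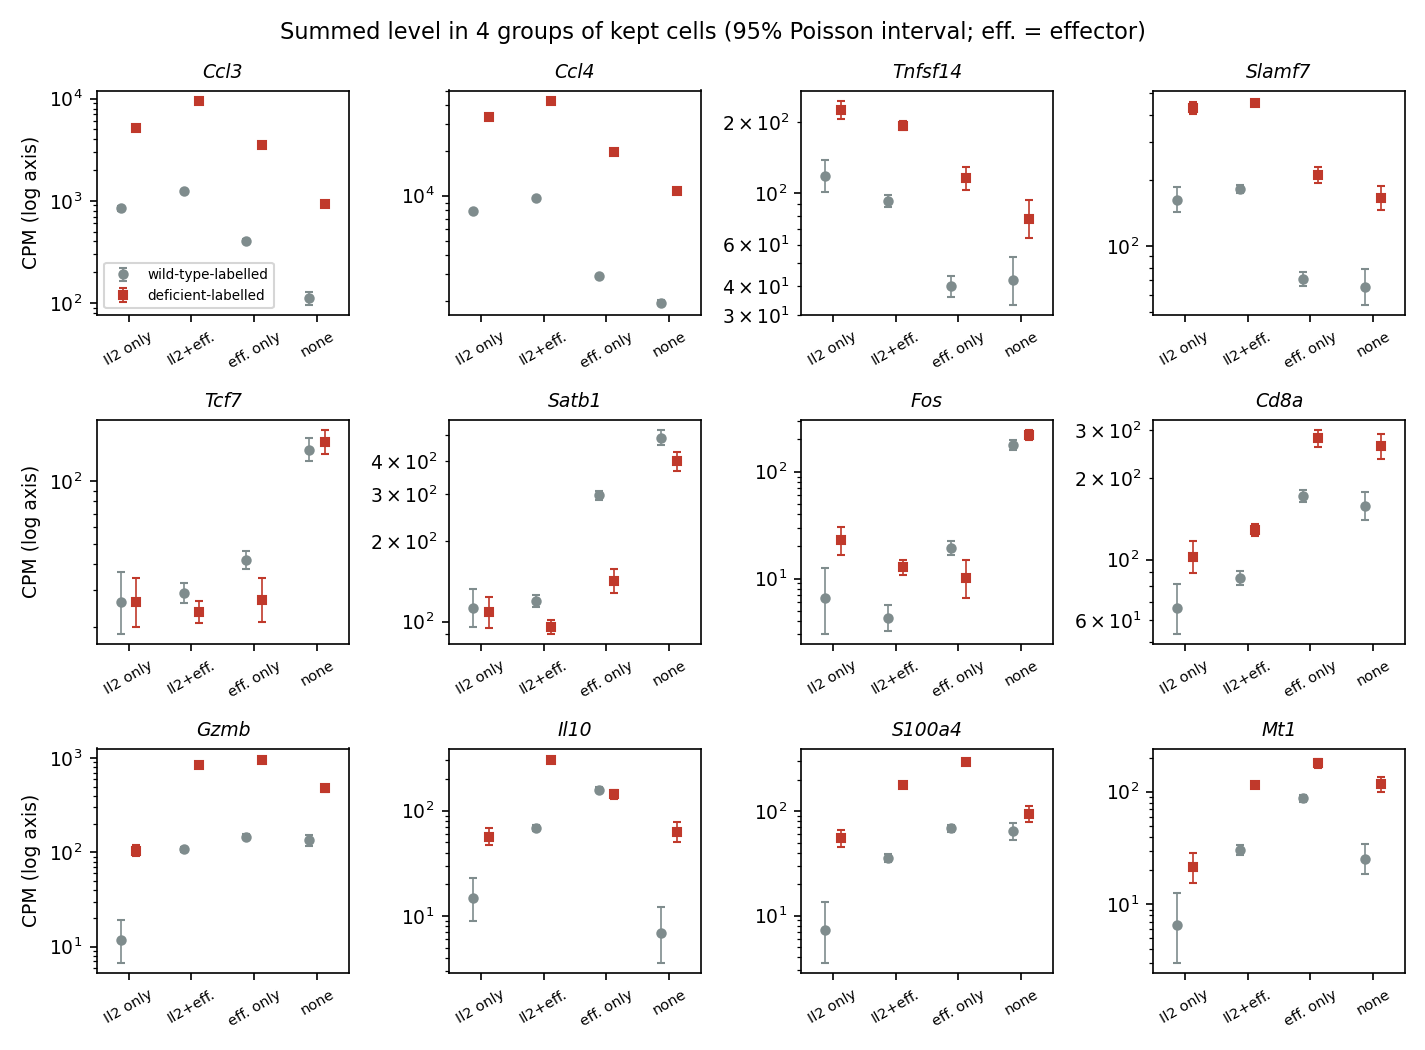
Summed level (CPM, log axes) of 12 genes in the Il2-only cells, Il2-high cells with an effector cytokine, effector-only cells and cells low for all 4 cytokines, with exact Poisson 95% intervals. Ccl3, Ccl4, Tnfsf14 and Slamf7 are higher in Il2-only cells than in cells low for all 4, Tcf7, Satb1, Fos and Cd8a lower, and Gzmb, Il10, S100a4 and Mt1 lie below both groups with an effector cytokine.

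The same contrast can be drawn in cells outside both groups: cells that carried an effector cytokine and were Il2-high (508 and 437) or Il2-low (332 and 99). These share libraries with the comparison above but no cells. Of 5318 genes tested, 8 were higher with Il2 (0.15%) and 72 lower (1.35%), together 1.5%. Of the 21 genes higher in Il2-only cells, 5 were among those 8 (23.8% of the 21, 62.5% of the 8): Ccl3, Ccl4, Cdk5r1, Inhba and Slamf7. Of the 199 lower genes, 26 were among the 72 (13.1% and 36.1%), and 0 genes were apart in opposite directions. Tcf7, Lef1, Satb1, Klf2 and Ccr7 were not among the 26. The leading genes of the 72 included the division genes Ccnb2, Cenpf, Birc5, Cdk1 and Cdca8, beside Tgfbr3, Maf and Ikzf4. G2/M calls at 5000 UMIs per cell made up 4.37% of these Il2-high and 9.85% of these Il2-low cells in the wild-type-labelled library. In the deficient-labelled library they made up 2.10% and 7.07%. The part of dividing cells in the 72 was not tested. The sign in both libraries was the same for 20 of the 21 higher genes, all tested in both, and for 125 of the 131 lower genes tested in both. Of all genes tested in the outside contrast, 25.6% were higher and 50.4% lower in both libraries. Outside the Il2-only cells Ccl3 was 3.06-fold and 2.71-fold higher with Il2, and Inhba 2.66-fold and 4.73-fold. Tcf7 was 1.44-fold and 1.15-fold lower there, well short of its ratio in Il2-only cells.

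**Figure D4:**
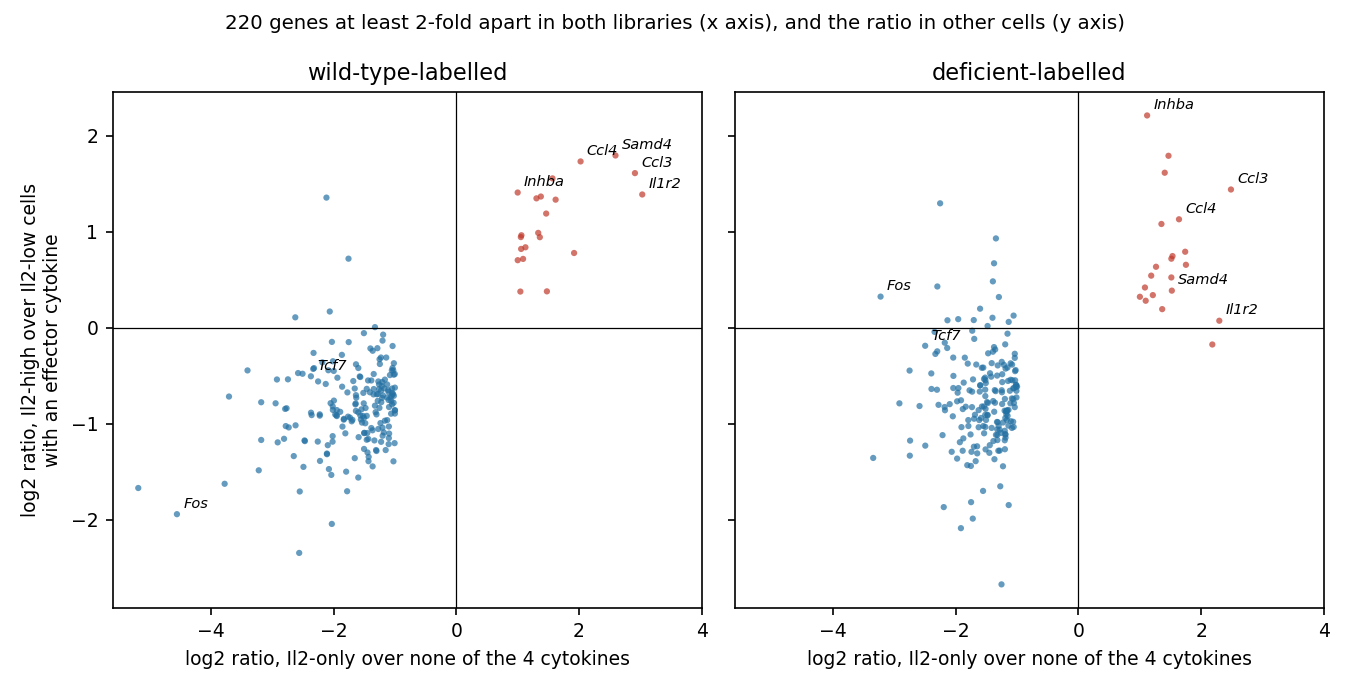
Each point is 1 of the 220 genes at least 2-fold apart between Il2-only cells and cells low for all 4 cytokines; the x axis gives that log2 ratio and the y axis the log2 ratio of Il2-high over Il2-low cells that carry an effector cytokine, 1 panel per library. The higher genes (red) lie almost all above the horizontal line, with Ccl3 and Ccl4 among the highest on both axes, and the lower genes (blue) mostly below it.

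Promoters of 3 genes higher with Il2 in both contrasts are shown beside that of Il2, because NFAT factors bind sites with a GGAAA core and ionomycin activates NFAT. Of the 6 genes looked for, 4 matched RefSeq (GRCm38.p6); Ccl4 and Cdk5r1 are named only. Each run is the 250 bases before the RefSeq start, 5′ to 3′ on the gene's strand, with every GGAAA and its reverse complement TTTCC in capitals, overlaps allowed. The windows are chr3:37125955-37126204 (minus strand) for Il2, chr11:83649379-83649628 (minus) for Ccl3, chr13:16011601-16011850 (plus) for Inhba and chr1:171649000-171649249 (minus) for Slamf7.
Il2: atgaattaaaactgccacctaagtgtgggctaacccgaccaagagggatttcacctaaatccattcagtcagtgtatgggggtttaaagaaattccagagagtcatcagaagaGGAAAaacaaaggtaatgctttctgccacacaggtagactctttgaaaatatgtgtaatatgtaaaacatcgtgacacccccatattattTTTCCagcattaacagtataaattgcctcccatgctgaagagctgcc
Ccl3: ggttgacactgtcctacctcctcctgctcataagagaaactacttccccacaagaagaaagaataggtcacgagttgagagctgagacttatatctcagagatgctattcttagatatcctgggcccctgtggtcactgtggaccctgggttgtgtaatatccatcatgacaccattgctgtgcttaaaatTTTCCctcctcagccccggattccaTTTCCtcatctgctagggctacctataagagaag
Inhba: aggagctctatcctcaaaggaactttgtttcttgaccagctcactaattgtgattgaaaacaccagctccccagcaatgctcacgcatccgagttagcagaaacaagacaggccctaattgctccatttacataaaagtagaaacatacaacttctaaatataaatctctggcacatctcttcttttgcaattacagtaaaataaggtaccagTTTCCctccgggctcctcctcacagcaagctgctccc
Slamf7: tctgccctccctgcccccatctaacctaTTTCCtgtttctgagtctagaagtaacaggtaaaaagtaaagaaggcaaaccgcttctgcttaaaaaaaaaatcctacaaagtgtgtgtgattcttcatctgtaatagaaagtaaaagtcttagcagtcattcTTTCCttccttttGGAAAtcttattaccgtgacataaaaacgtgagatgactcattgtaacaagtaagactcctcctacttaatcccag
The windows held 2 matches for Il2 (starting at -137 and -47 from the start), 2 for Ccl3 (-59 and -34), 1 for Inhba (-37) and 3 for Slamf7 (-222, -89 and -76). Of 32851 windows of the same length, 55.6% held at least 1 match, 21.4% at least 2 and 6.39% at least 3. A match describes the letters and is not a measured binding site. The window of Slamf7 lies inside the longer gene model of GENCODE (chromosome 1, 171632403 to 171653035), and that of Il2 overlaps the end of the gene model (chromosome 3, 37120523 to 37125959).

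Against Il2-high cells that carried an effector cytokine as well (508 and 437), 0 of 5056 genes were higher in Il2-only cells (0.0%) and 17 were lower (0.336%). Csf2, encoding the inflammatory growth factor GM-CSF, stood at 3.68 (5 UMIs) against 55.0 CPM and 6.15 (13 UMIs) against 38.1 CPM, 14.9-fold lower (6.37 to 46.1) and 6.20-fold lower (3.59 to 11.7). Gzmb, the granule protease granzyme B, was 9.16-fold and 8.13-fold lower. Il10, the anti-inflammatory cytokine, was 4.66-fold and 5.31-fold lower. The chemokine Ccl5 was 10.0-fold and 2.36-fold lower, at 5.89 against 59.1 CPM and 60.1 against 142 CPM. Il1r1, the signalling receptor for interleukin 1, was 5.36-fold and 3.65-fold lower, and its decoy Il1r2 3.52-fold and 2.51-fold. The calcium-binding S100a4 and S100a6, the metallothionein Mt1 and the interferon-induced membrane protein Ifitm2 were also lower. Of 21 measured genes of the ATF4 amino acid response, 16 were lower in both libraries, beside 17.3% of all genes, and 2 by 2-fold (Trib3 and Chac1). By the list rule 0.0728% of all genes were higher and 0.485% lower. The count depended on depth and on dividing cells. At 5000 UMIs per cell 5 genes were higher and 4 lower, and 2 of the 17 genes remained apart, while 12 were not tested and the 5 tested had the same sign. Without the dividing cluster 3, 9 genes were lower and 0 higher, among them 7 of the 17.

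Gzmb and Il10 were carried by few cells. In Il2-only cells the 16 and 221 Gzmb UMIs came from 4 of 78 and 10 of 96 cells, with 81.2% and 63.8% from a single cell. Gzmb was found in 12.7% and 28.1% of the other kept cells, at 126 and 832 CPM. The 20 and 120 Il10 UMIs came from 3 and 11 cells, with 90.0% and 66.7% from a single cell. For both genes the counting intervals are therefore too narrow.

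Against all other kept cells together, few genes were apart: of 5188 tested, 1 was higher (0.0193%) and 18 were lower (0.347%). Of these 19, 3 were still apart at 5000 UMIs per cell, where 12 were not tested and the 7 tested had the same sign, and 9 were still apart among cells called G1. The higher gene was Tmcc3, which encodes an endoplasmic reticulum membrane protein. It stood at 112 against 53.8 CPM (2.08-fold, 1.75 to 2.46) and 53.9 against 12.6 CPM (4.28-fold, 3.37 to 5.41), and since the wild-type-labelled ratio lay at the limit it dropped out under 8 of the alternatives. The lower genes included Mt1 at 6.63 against 52.9 CPM and 21.3 against 125 CPM, and S100a4 at 7.37 against 51.3 CPM and 55.3 against 190 CPM. Lgals3 (galectin 3) was 4.94-fold and 2.34-fold lower, and Il1r1 4.55-fold and 3.95-fold. Histone and mitosis genes (Hist1h1b, Hist1h2ae, Hist1h3c, Hist2h2ac, Ube2c and Cenpw) were lower too. Without cluster 3, Hist1h1b had a mean log2 ratio of 0.089 and Hist1h2ae of 0.16.

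The list of the type 17 programme held genes that were not in the rule. By the list rule, under which 0.0594% of all genes were higher and 0.701% lower, 4 of 22 were lower than in the other kept cells (Il1r1, Ccr6, Il22 and Tmem176a) and 0 higher. By any amount, 11 were lower and 4 higher in both libraries, beside 28.0% and 35.2% of all genes, with medians of -0.56 and -0.12 beside -0.02 and 0.07 over all genes. Against cells low for all 4 cytokines 3 of 20 were lower (Maf, Il6ra and Socs3) and 2 higher (Ccl20 and Il21), beside 5.29% and 0.413% of all genes. Ccr6 is the receptor that guides interleukin 17 producers to epithelia. Compared again with the other kept cells, it stood at 6.63 (9 UMIs) against 55.2 CPM and 5.68 (12 UMIs) against 17.6 CPM. Il22, a cytokine that acts on epithelia, was at 0 against 16.6 CPM in the wild-type-labelled library, at least 7.50-fold lower taking 3 counts over the group as the floor. In the deficient-labelled library 1 Il22 UMI was found, at 0.473 against 8.24 CPM (17.4-fold lower, 3.07 to 693). Of 16 other cytokines, 5 were lower (Csf2, Il10, Il22, Il24 and Penk).

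Few genes of any kind were 2-fold apart from the other kept cells. By the list rule 0.0594% of all genes were higher and 0.701% lower. Counts of 0 in the lists of this paragraph are near those shares. Of 45 early activation genes 28 were higher in both libraries, beside the 35.2% of all genes, and 0 by 2-fold, with medians of 0.31 and 0.37. Cd69, an early activation antigen, stood at 879 against 447 CPM (1.97-fold, 1.85 to 2.09) and 849 against 585 CPM (1.45-fold, 1.38 to 1.53), and was found in every Il2-only cell. Nr4a1, a nuclear receptor induced by antigen receptor signals, was 1.48-fold and 1.42-fold higher, and Myc 1.36-fold and 1.35-fold. None of 15 interleukin 2 receptor and signalling genes and none of 27 Il2 regulators was apart. Of 33 oxidative phosphorylation genes 29 were lower in both libraries, beside 28.0% of all genes, and 0 by 2-fold, with medians of -0.18 and -0.15. Of 42 G2/M genes 32 were lower in both, beside 28.0% of all genes. By 2-fold 4 were lower (Cdk1, Ube2c, Ccnb2 and Cdc20), beside 0.701% of all genes and the G2/M calls above.

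Between the libraries, Il2-only cells differed in many genes, while Il2, a gene of the rule, was 1.07-fold lower in deficient-labelled cells. Of 5599 genes tested, 303 were at least 2-fold higher in the deficient-labelled library (5.41%) and 147 lower (2.63%). TMM scaling gave 252 and 178, and median ratio size factors 245 and 187. In the other kept cells, 117 and 107 of 5551 genes passed (2.11% and 1.93%, together 4.04%); those cells have more UMIs in all and so less counting noise. Of the genes apart in Il2-only cells, 83 of 303 (of 117) and 60 of 147 (of 107) were apart in the other kept cells too. The sign was the same for 269 and 143, where 53.1% of all genes tested in the other kept cells were higher and 46.9% lower, and 0 genes were apart in opposite directions.

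**Figure D5:**
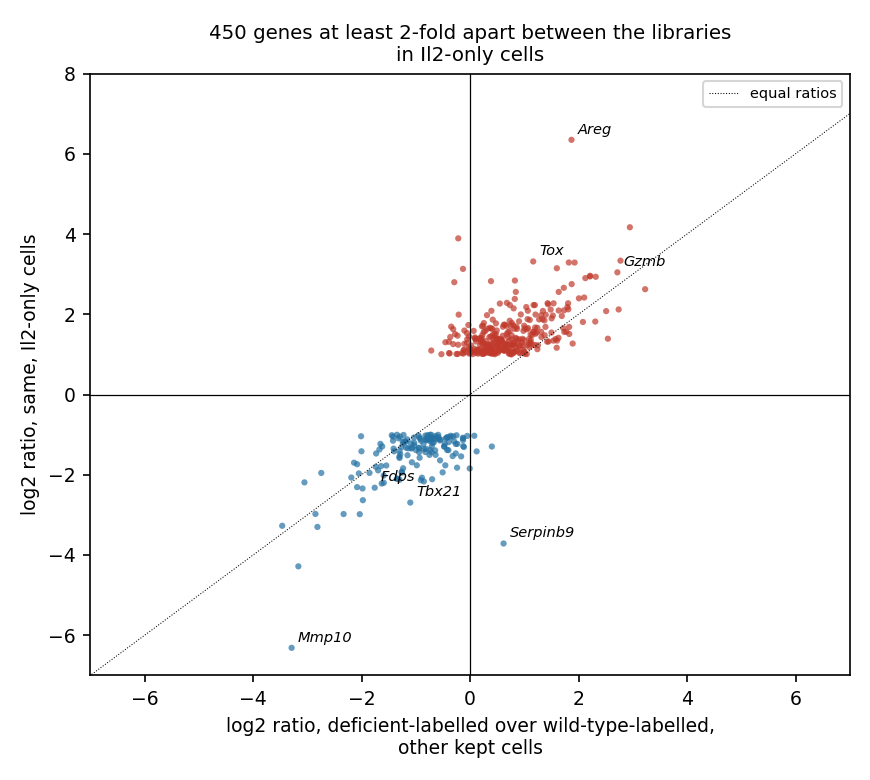
Each point is 1 of the 450 genes at least 2-fold apart between the libraries in Il2-only cells; the y axis gives that log2 ratio of deficient-labelled over wild-type-labelled, the x axis the same ratio in the other kept cells, and the dotted line equal ratios. Most points share the sign of both axes; Areg and Mmp10 lie farthest from 0, and Serpinb9 is lower in Il2-only cells and higher in the others.

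Areg and Map3k8 were among the genes higher in deficient-labelled Il2-only cells. Areg, the epidermal growth factor receptor ligand amphiregulin, had 1 UMI in wild-type-labelled cells (0.737 CPM) and 297 in deficient-labelled cells (140 CPM), a ratio of 191 (34 to 7556) beside 3.82 in the other kept cells. The 297 UMIs came from 24 of 96 cells, with 36.4% from a single cell. Map3k8, the kinase TPL2, stood at 17.7 and 144 CPM, 8.16-fold higher (5.38 to 12.9), and was found in 17 of 78 and 61 of 96 cells. Tex15, known from germ cells, stood at 5.16 and 110 CPM. Of 16 inhibitory receptor and exhaustion genes 6 were higher and 0 lower (Ctla4, Havcr2, Cd160, Tox, Nr4a2 and Nr4a3), beside 6.72% and 3.79% of all genes by the list rule. The transcription factor Tox stood at 2.95 and 38.3 CPM, and Havcr2 (TIM-3) at 4.42 and 52.0 CPM. Of 33 S-phase genes 12 were higher and 0 lower, beside the like G1 shares above. Jaml, Maml3, Ccl5 and Glrx were between 9.5-fold and 11.4-fold higher, and Morn3 15.7-fold (4.13 to 134) on 2 wild-type-labelled UMIs. Maml3 was 1.10-fold lower in the other kept cells. Of 7 chemokines 6 were higher, with Ccl3 6.17-fold (5.81 to 6.57) and Ccl4 4.22-fold (4.14 to 4.31). Gzmb was 8.87-fold higher, but its log2 ratio was -1.17 among cells called G1.

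Of the NFAT and calcineurin list, 4 of 17 were higher (Nfatc1, Orai1, Orai2 and Itpr1) and 1 lower (Nfatc2), beside 6.72% and 3.79% of all genes. Orai1, a plasma membrane calcium channel that feeds NFAT activation, stood at 99.5 and 360 CPM, 3.62-fold higher (3.01 to 4.38). Nfatc2, the NFAT factor present in resting T cells, stood at 11.8 (16 UMIs) and 4.26 CPM (9 UMIs), 2.77-fold lower (1.15 to 7.11), and at 25.5 and 6.78 CPM in the other kept cells.

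On the lower side in deficient-labelled Il2-only cells stood sterol synthesis and interferon genes. Of 23 cholesterol and lipid synthesis genes 14 were lower and 0 higher, beside 3.79% and 6.72% of all genes by the list rule. Their median log2 ratio was -1.39, beside 0.10 over all genes. Fdps, which makes farnesyl diphosphate, stood at 111 and 21.3 CPM (5.19-fold lower, 3.70 to 7.42), and Msmo1, a sterol demethylase, was 5.28-fold lower. In the other kept cells these were 3.45-fold and 4.07-fold lower. Of 17 interferon response genes 9 were lower, beside the 3.79% of all genes, with a median of -1.09. Among them was Ly6a (Sca-1) at 466 and 99.3 CPM. Tbx21, encoding the type 1 lineage factor T-bet, stood at 57.5 and 8.04 CPM, 7.15-fold lower (4.19 to 12.9) beside 2.23-fold in the other kept cells. Mmp10, the matrix protease stromelysin 2, stood at 267 and 2.37 CPM, 113-fold lower (47.9 to 349), with its 362 wild-type-labelled UMIs from 15 of 78 cells. Id3, an inhibitor of E proteins, was 4.65-fold lower. Serpinb9, a granzyme B inhibitor, was 17.4-fold lower (7.59 to 49.1), but 1.56-fold higher in the other kept cells. Upp1, Ifi211, Ermn, Tnfrsf25 and Vegfa were between 5.88-fold and 10.53-fold lower, and between 4.2-fold and 12.05-fold lower in the others. Of 82 ribosomal protein genes 80 were lower, beside 41.0% of all genes, and 0 by 2-fold, with a median of -0.42 and a share of all UMIs of 31.2% in wild-type-labelled and 23.4% in deficient-labelled cells.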

How the data were processed

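The authors deposited raw UMI counts per gene and barcode, made with Cell Ranger (7.0.0, per the file headers) on mm10 (per the submitters' processing notes). The treatment of intronic reads is not given. Counts of 12 multiplexing tags stayed out of all totals. A barcode was kept if it had 500 or more genes and no more than 10% mitochondrial UMIs, which left 1018 of 1149 and 709 of 754. The 2 matrices list 32285 genes, of which 32158 had coordinates in GENCODE M21.

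The members, gene lists and the rule of size were chosen with earlier results of these data known. UMIs were summed per library and cell group and divided by the group's total (1357128 and 2113887 UMIs in Il2-only cells, so that 1 UMI is 0.737 and 0.473 CPM). Log2 ratios used CPM plus 1, which understates low genes; folds are ratios of CPM without it. Intervals were exact Poisson (sums), Clopper-Pearson (shares) and conditional binomial (ratios). The genes named come from the 12 largest in each direction per comparison by the smaller library ratio, a fixed set of markers, cytokines and regulators, and the highest and lowest members of 28 lists; other named genes were chosen after their values were seen.

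Cells were thinned to 5000 UMIs for shares and phase calls, clustered jointly by the Leiden method (resolution 0.6) without the 4 cytokine genes, and run through Scrublet; doublet calls were kept and left out in an alternative. Other alternatives were edgeR TMM factors (edgeR 4.0.16), median ratio size factors (DESeq2 1.42.0, R 4.3.3), pseudocounts, floors, filters, cytokine thresholds, G1 cells and clusters left out. No count model was fitted. Python 3.11.15, NumPy 2.4.6, SciPy 1.17.1, pandas 2.3.3, scanpy 1.11.5 and matplotlib 3.10.9 were used, and the scripts were tested on simulated data. Some genes that the rules would name are not reported here.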

Additional observations from a re-analysis of the deposited data

Results flagged for a closer look

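In 3 comparisons a gene was at least 2-fold apart in opposite directions in the 2 libraries; none of these differences was tested, since there was 1 library per genotype. Serpinb9, an inhibitor of granzyme B, had a log2 ratio of 1.31 in wild-type-labelled Il2-only cells against the other kept cells (49.4 against 19.4 CPM) and of -3.02 in deficient-labelled cells (2.84 against 30.2 CPM). Dync1li2, a dynein subunit, had a log2 ratio of -1.05 against cells low for all 4 cytokines in the wild-type-labelled library (11.8 against 25.5 CPM) and of 1.29 in the other (21.8 against 8.32 CPM). Ramp1, a receptor chain for calcitonin gene-related peptide, had a log2 ratio of -1.08 against Il2-high cells with an effector cytokine in the wild-type-labelled library (15.5 against 33.7 CPM) and of 1.0 in the other (25.5 against 12.2 CPM).

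Barcodes over the mitochondrial limit were not analysed, yet some met the cytokine rule: 6 of 112 (5.36%, 1.99 to 11.3) in the wild-type-labelled and 5 of 36 (13.9%, 4.67 to 29.5) in the deficient-labelled library.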

How the results depend on the processing

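No paired analysis was possible because each genotype had 1 library and no replicate number, and for the same reason no replicate could be left out. Against the other kept cells the 19 genes apart became 41 with no floor and 11 with a floor of 50 CPM. Against cells low for all 4 cytokines the 220 became 430 and 100 under those floors, 338 with the mean of per-cell CPM, 117 with at most 5% mitochondrial UMIs and 78 without cluster 5. Against other Il2-high cells the 17 became 31 and 7 under those floors, and 9 both when thinned (5 higher and 4 lower) and without cluster 3 (all lower). Between libraries within Il2-only cells the 450 became 877, 224 and, when thinned, 739; of the 450, 273 were still apart when thinned, and 352 of 357 tested had the same sign. The share of Il2-only cells became 9.82% and 17.6% with an effector maximum of 20, and 10.9% in the deficient-labelled library with a maximum of 5. Without thinning 97.4% and 96.9% of Il2-only cells were called G1, so phase shares depend on depth. Named genes turned sign in 5 cases: without cluster 3, Hist1h1b (0.089) and Hist1h2ae (0.16) against the other kept cells and Hist1h2ae (0.44) against other Il2-high cells; between libraries, Gzmb (-1.17, G1 cells) and Hist1h2ap (-0.33, thinned). The cause of these shifts was not tested, except that a floor or thinning changes which genes are tested. Of the other values for named genes 1024 kept direction and side of the limit and 139 kept direction alone. With 78 and 96 cells, genes under about 20 CPM rest on few UMIs.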
